A study of Mus musculus with 40 samples.

Results

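Blood neutrophils and blood monocytes of mice with colon tumors were each compared with the same cells of healthy mice, and the difference between the 2 changes, the interaction, was tested for every gene. The comparison rests on 16 of the 40 RNA sequencing libraries of the series, 4 for each cell type in each state of health. Tumor-bearing mice were Cdx2CreERT2 - Apc fl/fl animals. Their strain label ends in a different number in each library (C57Bl6/Sv131, C57Bl6/Sv132, C57Bl6/Sv134, C57Bl6/Sv148, C57Bl6/Sv149, C57Bl6/Sv150, C57Bl6/Sv151 and C57Bl6/Sv152), so that the strain is uncertain. In these mice tamoxifen (25 mg/kg, injected intraperitoneally at 8 to 10 weeks of age) activates a Cre recombinase driven by the Cdx2 promoter, which deletes the tumor suppressor Apc in colon epithelium. Healthy mice were labelled C57Bl6, carried no transgene and received no agent. Tumor, strain, genotype and tamoxifen therefore cannot be told apart in either cell type. Cells were sorted from blood after lysis of red cells as CD45+ EpCAM- CD11b+ MHCII- events, neutrophils as Ly6G+ Ly6C-low and monocytes as Ly6G- Ly6C-high. By their titles some libraries were pools of a pair of animals, 1 among the neutrophils of tumor-bearing mice and 3 among the monocytes of healthy mice. The healthy neutrophil libraries WT13PG, WT14PG, WT15PG and WT16PG are titled with the same animals as the monocyte pools WT13and14PC and WT15and16PC. Healthy libraries of the 2 cell types may therefore not be independent. Nothing else states that libraries of a group came from separate sorts, so that the tests measure the spread between libraries.

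Neutrophils and classical monocytes are short-lived cells that leave the bone marrow for the blood. Neutrophils fill their granules in waves while they mature, and transcripts of the later granule proteins (lactoferrin, cathelicidin, neutrophilic granule protein, lipocalin 2) mark immature stages and are low in resting mature cells. Both cell types also carry a program of interferon-stimulated genes, which is set by type I and type II interferons and is switched on through interferon-stimulated response elements in promoters. A change seen in 1 cell type is not specific to it unless the difference between the cell types is itself tested, which the interaction does.

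The libraries held between 10716847 and 19260023 counts (median 14808667.5). Levels are given as CPM, counts scaled to library size with the trimmed mean of M-values (TMM), in the order of replicates 1 to 4, and are compared within a gene. Each cell type carried its own markers. The 8 neutrophil markers summed to 26676 to 105402 CPM in neutrophil libraries and to 273 to 1212 CPM in monocyte libraries. The 8 monocyte markers summed to 9986 to 15661 CPM in monocyte libraries. In neutrophils these monocyte markers summed to 1489, 1616, 1661 and 2174 CPM in healthy and 541, 605, 1165 and 983 CPM in tumor-bearing mice, without overlap. Transcripts of other cells differed between replicates within groups: erythroid markers ranged from 22 to 1995 CPM in healthy neutrophils, from 42 to 5268 CPM in neutrophils of tumor-bearing mice, from 4 to 1537 CPM in healthy monocytes and from 17 to 1866 CPM in monocytes of tumor-bearing mice. None of the erythroid, platelet, B cell, T cell, NK cell, eosinophil, basophil or epithelial markers tested passed the thresholds in either cell type or in the interaction, while Cd209a of 6 dendritic cell markers and Mpeg1 of 8 monocyte markers fell in neutrophils. Xist and the Y-linked Eif2s3y did not follow the titles. Libraries of the animals titled T17, T8 (pooled with T10 for neutrophils) and T9 carried Xist in 1 cell type (600 to 771 CPM) and not in the other (0.979 to 1.52 CPM), and replicates 1 and 2 of healthy monocytes carried both Xist (238 and 516 CPM) and Eif2s3y (53.6 and 26 CPM). Titles are therefore not used to pair the cell types of 1 animal, and counts without the mixed healthy monocyte libraries are given beside the first counts. Apc itself was not called in neutrophils (log2 change 0.34, edgeR adjusted p = 0.42) or monocytes (-0.09, adjusted p = 0.93), but its deletion is driven in the colon, so that blood cells do not check the labels.

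Blood neutrophils differed from those of healthy mice in more genes than blood monocytes did. Over 16817 genes, edgeR's quasi-likelihood test with Benjamini-Hochberg adjustment was read at an adjusted p below 0.05 and an absolute log2 change above 1.5. In neutrophils 242 genes rose (1.44%) and 387 fell (2.3%), and in monocytes 42 rose (0.25%) and 28 fell (0.166%). The interaction was higher, meaning a more positive change in neutrophils, for 73 genes (0.434%) and lower for 63 (0.375%). At an unadjusted p below 0.05 the numbers were 3251 genes in neutrophils, 1963 in monocytes and 2382 in the interaction. Without replicates 1 and 2 of healthy monocytes, 672 genes were called in neutrophils, 5 in monocytes and 20 in the interaction. In bulk libraries a changed share of cells within a gate and a changed amount of RNA per cell cannot be told apart. The number of calls is not a measure of effect. The common biological coefficient of variation was 0.507 within neutrophils and 0.564 within monocytes, and the median standard errors of the 2 changes were 0.54 and 0.52.

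Joining the 3 tests sorted the genes into classes. Only 85 genes were neutrophil-specific, which means called in neutrophils and in the interaction in the same direction and not so called in monocytes, 43 of them higher and 42 lower. A change common to both cell types, called in each in the same direction, was found for 23 genes, 15 higher (0.0892% of all genes) and 8 lower (0.0476%). Without replicates 1 and 2 of healthy monocytes 3 genes were common, all of them higher. Another 8 genes were monocyte-specific, 5 higher and 3 lower, and 2 moved in opposite directions. For 519 genes called in neutrophils and 37 called in monocytes neither the other cell type nor the interaction passed, so that these changes can be named neither specific nor common. Finally, 39 genes passed in the interaction alone. Of the 629 genes called in neutrophils, 449 (71.4%) had a monocyte change of the same sign, against 53.6% of all genes tested. The genes that rose in neutrophils had a median log2 change of 2.27 there and of 0.23 in monocytes, and those that fell had medians of -2.58 and -0.57, beside medians of -0.03 and 0.01 over all genes.

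**Figure D1:**
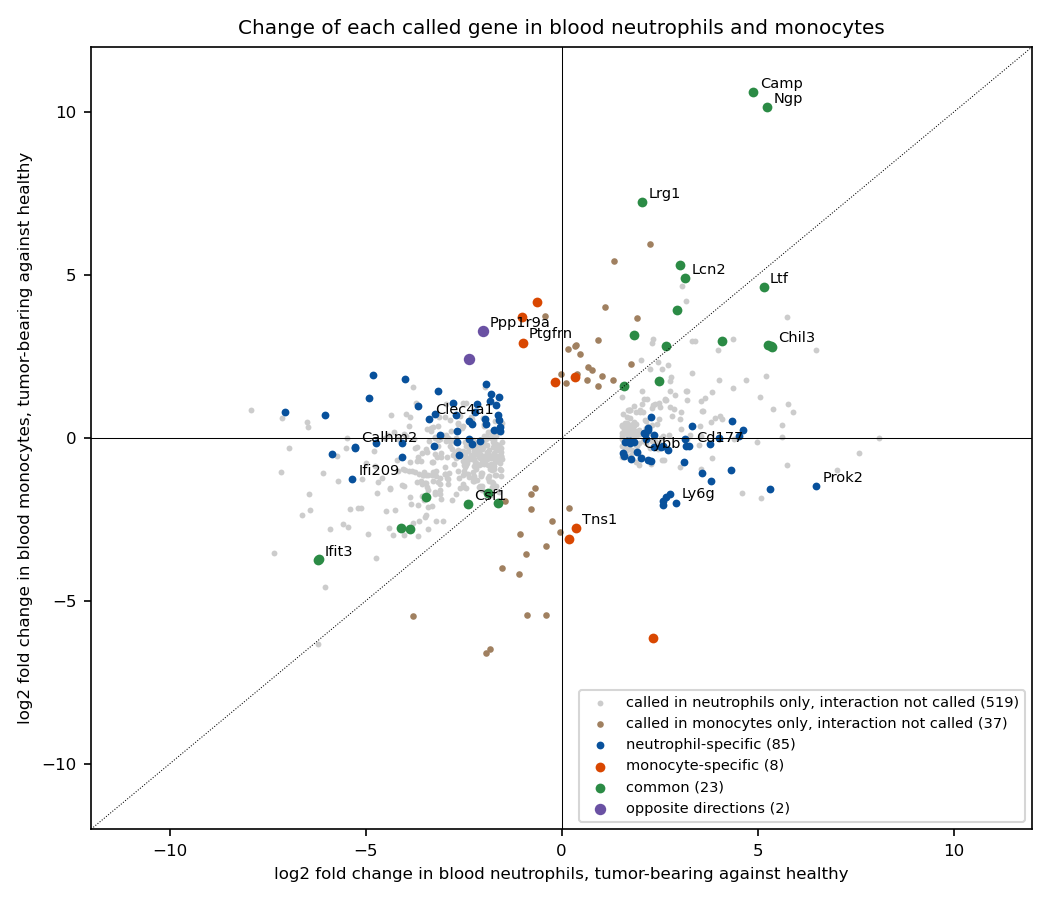
Log2 change between tumor-bearing and healthy mice in blood neutrophils (x axis) and in blood monocytes (y axis) for every gene called in at least 1 of the 2 cell types. Colors mark the classes with their numbers of genes, and the dotted line marks equal change. The 22 genes with at most 3 counts in every monocyte library, Prok2 among them, are drawn at a monocyte change that depends on the prior count of the fit. The 85 neutrophil-specific genes lie on both sides of the horizontal line, some well away from it (Ly6g at -1.98, Lipt1 at 1.93). The 23 common genes lie in the lower left and upper right quadrants.

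Among the 43 genes that rose in neutrophils specifically were Prok2, the secreted ligand prokineticin 2, the neutrophil surface proteins Ly6g and Cd177, the catalytic subunit of the NADPH oxidase Cybb and the lipopeptide receptor Tlr1. Prok2 (6:99711299-99726392 of mm10, minus strand) stood at 1.07, 2.68, 0.149 and 2.31 CPM in healthy neutrophils and at 127, 148, 80.1 and 216 CPM in neutrophils of tumor-bearing mice. Every library of tumor-bearing mice was above every healthy one, and monocytes held 4 counts in all healthy and 1 count in all tumor-bearing libraries together. The log2 change in neutrophils was 6.49 (SE 0.61, adjusted p = 2.2e-05, edgeR) and the interaction passed (adjusted p = 0.042), but no monocyte fold is given because no monocyte library had more than 1 count. That interaction was kept in 5 of 16 fits with 1 library removed, those without replicates 2, 3 or 4 of healthy or replicates 3 or 4 of tumor-bearing neutrophils, and its largest adjusted p was 0.1. In all, 3 of the 85 neutrophil-specific genes had at most 3 counts in every monocyte library, Prok2 and the potassium channel gene Kcnn3 (neutrophil change 4.51) among them.

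Ly6g (15:75155240-75159126, plus strand) encodes the surface protein by which neutrophils were gated, and cells without it were gated as monocytes. Healthy neutrophils had 7.71, 16.3, 10.5 and 47.6 CPM and neutrophils of tumor-bearing mice 203, 205, 84 and 128 CPM. Monocytes had 9.28, 18.8, 3.74 and 7.7 CPM in healthy and 2.62, 3.23, 1.9 and 2.21 CPM in tumor-bearing mice. The groups did not overlap in either cell type, in opposite directions. Neutrophils rose by 2.92 (SE 0.56, adjusted p = 0.0058), monocytes did not pass (-1.98, SE 0.55, adjusted p = 0.14), and the interaction was 4.89 (SE 0.78, adjusted p = 0.0088). Its neighbor BC025446, of the same Ly6 gene cluster, gave an interaction of 4.49 (adjusted p = 0.018). Reads of these related genes may be shared.

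Cd177, which encodes a glycosylphosphatidylinositol-anchored surface protein of neutrophils, had 58.6, 95.9, 93.2 and 162 CPM in healthy neutrophils and 1525, 1102, 665 and 643 CPM with tumor. Monocytes had 71.6, 175, 119 and 143 CPM in healthy and 117, 84.9, 110 and 114 CPM in tumor-bearing mice. The rise was thus seen in 4 of 4 neutrophil libraries while the monocyte groups overlapped. The change was 3.26 (SE 0.36, adjusted p = 0.00012) in neutrophils and -0.26 (SE 0.33, adjusted p = 0.84) in monocytes, and the interaction was 3.52 (95% interval 2.51 to 4.53, adjusted p = 0.0028, edgeR).

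Cybb went the same way from a level that was higher in monocytes. Healthy neutrophils had 146, 164, 119 and 139 CPM and neutrophils of tumor-bearing mice 730, 411, 466 and 560 CPM. Monocytes had 2775, 3776, 2611 and 2406 CPM in healthy and 2388, 2119, 2050 and 2071 CPM in tumor-bearing mice. The neutrophil groups lay apart, and all 4 monocyte libraries of tumor-bearing mice lay below the lowest healthy one. Cybb rose by 1.93 (SE 0.19, adjusted p = 3.6e-05) in neutrophils, the monocyte change of -0.42 did not pass (adjusted p = 0.39), and the interaction was 2.35 (95% interval 1.79 to 2.92, adjusted p = 0.0009).

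Tlr1 had 36, 22, 14.2 and 19.7 CPM in healthy neutrophils and 117, 144, 93.3 and 91 CPM with tumor, against 75.8, 124, 57.8 and 42.4 CPM and 51.9, 55.7, 36.4 and 39.4 CPM in monocytes. The neutrophil groups were apart and the monocyte groups overlapped. Its interaction was 2.99 (SE 0.47, adjusted p = 0.0077), and it was the only one of 15 Toll-like receptor genes tested that passed in neutrophils or in the interaction, while none passed in monocytes. Ceacam10, a secreted member of the carcinoembryonic antigen family, had 21 to 27 CPM in healthy neutrophils and 61.9 to 89.7 CPM with tumor, with an interaction of 2.42 (adjusted p = 0.017).

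The other large neutrophil-specific rises concerned metabolism and signaling. Slc7a5 encodes the light chain of a large neutral amino acid transporter, Upp1 a uridine phosphorylase, Ggt1 a gamma-glutamyltransferase of glutathione breakdown and Acvrl1 a type I receptor of the TGF-beta family. Upp1 had 14.1, 22.5, 10.6 and 24.7 CPM in healthy neutrophils and 103, 177, 65.2 and 147 CPM with tumor, and monocytes had at most 2.37 CPM. Its groups lay apart, and the interaction was 4.50 (adjusted p = 0.012, edgeR). The interaction of Ggt1 (6.88, adjusted p = 0.049) was kept in 4 of the 16 fits without 1 library. Its largest adjusted p was 0.48, without replicate 1 of healthy monocytes. That library held 1.19 CPM and the others of its group 0, 0 and 0.0985 CPM, so that the size depends on 1 library near the floor. The interactions of Slc7a5 (4.66, adjusted p = 0.03) and Acvrl1 (4.38, adjusted p = 0.027) were each kept in 9.

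Further genes of this class, chosen after their values were seen for their level or their small error, included Anxa1, the glucocorticoid-induced annexin A1 (575 to 1088 CPM in healthy neutrophils, 2156 to 3614 CPM with tumor). The monocyte change of Anxa1 was -0.11 (SE 0.25) and its interaction 1.96 (adjusted p = 0.018). Ifitm6, of the interferon-induced transmembrane family, had 95.9 to 339 CPM and 842 to 3018 CPM in neutrophils, and gave an interaction of 3.41 (adjusted p = 0.02) that was lost without replicate 3 of healthy neutrophils (adjusted p = 0.055), replicate 2 of neutrophils of tumor-bearing mice (0.052) or replicates 3 (0.052) or 4 (0.059) of monocytes of tumor-bearing mice. Eif4e3, a cap-binding protein of the translation machinery, had 11.5, 14, 14.4 and 14.3 CPM in healthy neutrophils and 100, 70.1, 72.1 and 80.9 CPM with tumor, against 86.9 to 127 CPM and 72.5 to 100 CPM in monocytes. All 4 healthy neutrophil libraries lay below those of tumor-bearing mice, and the monocyte groups overlapped. Its interaction was 2.82 (SE 0.27, adjusted p = 0.00017). Adpgk, an ADP-dependent glucokinase, gave 3.97 (adjusted p = 0.0029). The interactions of Ly6g, Upp1, Cd177, Cybb, Tlr1, Ceacam10, Eif4e3, Adpgk, Kcnn3 and Anxa1 were kept in all 16 fits that left out 1 library. Without both replicates 1 and 2 of healthy monocytes those of Ly6g (adjusted p = 0.061), Upp1 (0.065), Tlr1 (0.054), Ceacam10 (0.065) and Anxa1 (0.097) were lost.

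Among the 42 genes that fell in neutrophils specifically, the ion channel gene Calhm2, the C-type lectin Clec4a1, the repressor Prdm1 and the surface lectin-like protein Cd93 had levels in monocytes that did not pass as changed. Calhm2 (19:47105353-47138294, minus strand, overlapping Pdcd11) had 4.07, 9.65, 11.1 and 4.1 CPM in healthy neutrophils and 0.217, 0.176, 0 and 0.284 CPM with tumor. Monocytes kept 107, 110, 130 and 113 CPM in healthy and 114, 121, 69.7 and 79.6 CPM in tumor-bearing mice. All 4 neutrophil libraries of tumor-bearing mice were below 1 CPM, while the monocyte groups overlapped. Calhm2 fell by 5.27 on the log2 scale in neutrophils (SE 0.50, adjusted p = 2.2e-05), and its interaction of -5.01 (95% interval -6.30 to -3.73, adjusted p = 0.0015, edgeR) was the most negative among the neutrophil-specific genes named by rule.

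Clec4a1 had 35.6, 24.1, 66.7 and 149 CPM in healthy neutrophils and 3.62, 4.23, 8.99 and 9.76 CPM with tumor, against 220, 286, 243 and 213 CPM and 288, 801, 174 and 193 CPM in monocytes. Neutrophils lay apart and monocytes overlapped. The interaction was -3.98 (SE 0.79, adjusted p = 0.027) and was kept in 10 of 16 fits without 1 library, its adjusted p reaching 0.069 without replicate 2 of neutrophils of tumor-bearing mice. Cd93, chosen after its values were seen, had 111, 57.5, 72.2 and 84.5 CPM in healthy neutrophils and 15.6, 14.1, 28.7 and 32.9 CPM with tumor, whereas monocytes had 152, 220, 223 and 121 CPM and 311, 260, 538 and 452 CPM. The groups were apart in both cell types and in opposite directions. Only the fall in neutrophils passed (-1.83, adjusted p = 0.0036, against 1.12 in monocytes, adjusted p = 0.14), with an interaction of -2.96 (adjusted p = 0.0069) that was kept in all 16 fits. Stard9, a kinesin with a lipid-transfer domain, showed the same pattern, with 45.7 to 101 CPM and 10.3 to 22.7 CPM in neutrophils, 130 to 197 CPM and 278 to 441 CPM in monocytes, and an interaction of -3.21 (adjusted p = 0.0016), kept in all 16. Calhm2, Clec4a1, Cd93 and Stard9 stood higher in monocytes, and their falls went with the lower summed level of monocyte markers in neutrophils. The part of monocyte transcripts in these falls was not tested.

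The interferon-inducible DNA sensor gene Ifi209 had the deepest neutrophil fall of the named genes in this class (-5.34, SE 0.72, adjusted p = 0.00044). Healthy monocytes had 260, 251, 165 and 330 CPM and those of tumor-bearing mice 89.6, 128, 112 and 87.6 CPM, which did not overlap, but the monocyte change of -1.27 did not pass (adjusted p = 0.4). Its interaction of -4.08 (adjusted p = 0.038) was kept in 4 of 16 fits. Prdm1 had 4.02 to 21.9 CPM in healthy neutrophils and 1.09 to 1.9 CPM with tumor (interaction -3.41, adjusted p = 0.037, kept in 7 of 16 fits). Asb13, a substrate receptor of a ubiquitin ligase (-3.93, adjusted p = 0.034), and AU019990 (-3.15, adjusted p = 0.034) were each kept in 8 of 16, and Zfp318 (-3.20, adjusted p = 0.049) in 1 of 16.

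**Figure D2:**
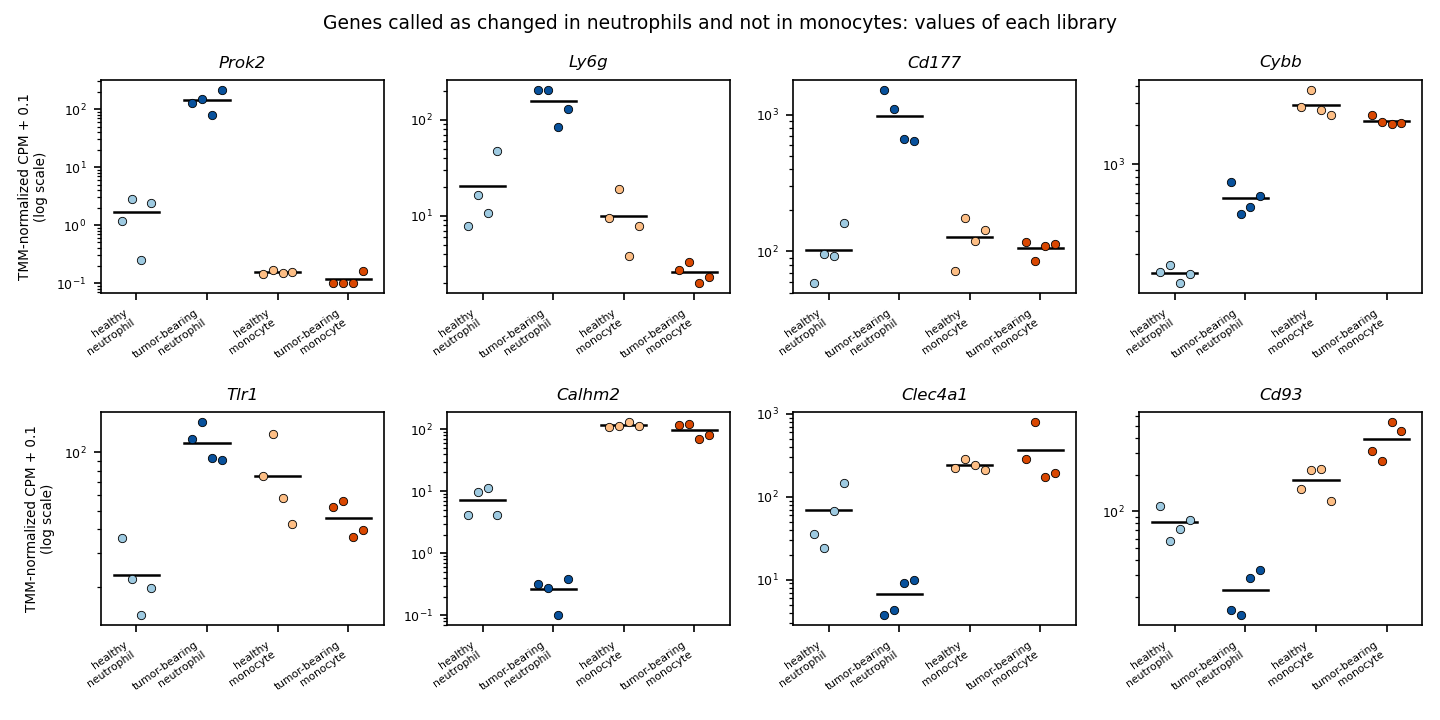
CPM + 0.1 on a log scale (y axis) of 8 neutrophil-specific genes in healthy and tumor-bearing neutrophils and monocytes (x axis); each point is a library and each bar the mean of 4. Prok2, Ly6g, Cd177, Cybb and Tlr1 are higher in all 4 neutrophil libraries of tumor-bearing mice than in the healthy ones, and Calhm2, Clec4a1 and Cd93 are lower.

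Genes of late neutrophil granules led the changes common to both cell types. Of 19 secondary and tertiary granule genes tested, 11 rose in neutrophils, 5 rose in monocytes (Ngp, Ltf, Lcn2, Camp and Chil3, all 5 also raised in neutrophils) and none fell, with list medians of 2.24 in neutrophils and 0.05 in monocytes. In the interaction 3 were higher (Cybb, Cd177 and Ceacam10) and 1 was lower (Ngp). Ngp (9:110419747-110423012, plus strand), the cystatin-related neutrophilic granule protein, had 57.5, 70, 26.1 and 57.4 CPM in healthy neutrophils and 3111, 1827, 1053 and 2008 CPM with tumor. In monocytes it went from 0.212, 0.202, 0.0985 and 0.0575 CPM, 11 counts in all, to 248, 98.5, 136 and 212 CPM. Both pairs of groups lay apart. The log2 change was 5.24 (SE 0.42, adjusted p = 6.7e-06) in neutrophils and 10.16 (SE 0.56, adjusted p = 4.2e-08) in monocytes, and the interaction of -4.92 (95% interval -6.23 to -3.60, adjusted p = 0.0016) was called in favor of monocytes.

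Ltf (9:111019271-111042767, plus strand), which encodes lactoferrin, had 14.1, 24.2, 6.41 and 10.7 CPM in healthy neutrophils and 584, 219, 467 and 710 CPM with tumor. Monocytes had 1.36, 2.69, 2.66 and 1.09 CPM in healthy and 55.2, 36, 30.7 and 70.7 CPM in tumor-bearing mice. No groups overlapped. The rise was 5.15 (SE 0.50) in neutrophils and 4.63 (SE 0.49) in monocytes (adjusted p = 2.6e-05 and 0.00035), and the difference of 0.52 had a 95% interval of -0.77 to 1.82, which leaves room for a larger rise in either cell type. Lcn2 (2:32384633-32388252, minus strand), which encodes the siderophore-binding lipocalin 2, had 393, 558, 406 and 1115 CPM and 8762, 5748, 3158 and 4350 CPM in neutrophils, and 4.92, 4.91, 1.08 and 9.59 CPM and 109, 35.4, 246 and 229 CPM in monocytes. It rose by 3.15 and by 4.92 (adjusted p = 0.0069 and 0.0034, edgeR), again without overlap.

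Camp (9:109847379-109849617, minus strand), the cathelicidin gene, had 0.429, 6.19, 1.71 and 1.2 CPM in healthy neutrophils and 88, 24.3, 41.8 and 139 CPM with tumor. It had no count in any healthy monocyte library and 23.9, 1.04, 10.2 and 16.1 CPM in those of tumor-bearing mice. Taking 3 counts in each healthy library as the floor, the monocyte level was at least 78.9-fold higher. That monocyte call (adjusted p = 0.014) was lost without replicate 1 of healthy monocytes (adjusted p = 0.054). Lrg1, a leucine-rich secreted glycoprotein, was common by the rule but unequal, with 68.5 to 252 CPM and 328 to 1509 CPM in neutrophils and 0.0575 to 0.339 CPM and 9.79 to 51.8 CPM in monocytes. Its change was 2.05 (adjusted p = 0.041) and 7.24 (adjusted p = 0.00035), with an interaction of -5.18 (adjusted p = 0.017), and its neutrophil call was kept in 6 of 16 fits without 1 library.

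Wfdc21, a small secreted protein with a whey acidic protein domain, rose by 3.02 in neutrophils and 5.31 in monocytes (adjusted p = 0.0073 and 0.012), and the ABC transporter Abca13 rose by 2.95 and 3.93 (adjusted p = 0.00058 and 0.00038). Chil3, the chitinase-like protein Ym1, had 1.71 to 3.25 CPM and 55.9 to 148 CPM in neutrophils, and 77.2 to 188 CPM and 233 to 1578 CPM in monocytes, with changes of 5.36 and 2.81. The monocyte change of Chil3 (adjusted p = 0.03) was lost without replicates 1 (0.11), 3 (0.075) or 4 (0.067) of healthy or replicates 3 (0.093) or 4 (0.067) of tumor-bearing monocytes. Chil4, Gm6522 and Chia1 passed with it, but these near-identical genes may share reads and are not separate evidence. The lipid flippase Atp11a (2.48 and 1.76, difference 0.72, 95% interval -0.07 to 1.51), the kinase Mapk13 (1.84 and 3.17), the stem cell surface protein Prom1 (2.67 and 2.82) and the glycosyltransferase B4galt6 (1.58 and 1.60) completed the 15 genes. Both calls of Mapk13 were kept in 10 of 16 fits without 1 library, and the monocyte calls of Prom1 in 5, Chia1 in 4, Gm6522 in 8 and Chil4 in 9. For B4galt6 the difference was -0.02 (95% interval -1.02 to 0.97), and its monocyte call (adjusted p = 0.047) was kept in 2 of 16 fits.

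The summed level of neutrophil markers was also higher in most monocyte libraries of tumor-bearing mice, but the groups overlapped. Of the 8 markers, 2 had a negative change in monocytes, Ly6g among them. Summed over the 8 markers, monocytes of healthy mice had 277, 600, 273 and 288 CPM and those of tumor-bearing mice 582, 551, 1212 and 1078 CPM. Of the markers, S100a8 and S100a9, the subunits of calprotectin, rose in monocytes by 3.69 and 5.42 (adjusted p = 0.017 and 0.013), and the other 6 did not pass. S100a8 had 4.32, 21.9, 6.35 and 4.19 CPM in healthy and 69.5, 122, 160 and 120 CPM in tumor-bearing monocytes, without overlap. Both calls were lost without replicate 1 of healthy monocytes (adjusted p = 0.066 and 0.06), that of S100a8 also without replicate 3 (0.051). The markers were not shifted evenly. The mean level in monocytes of tumor-bearing mice was 0.0602% of that in their neutrophils for Retnlg, 0.205% for Cxcr2, 0.389% for S100a8, 0.528% for S100a9, 1.6% for Ly6g, 4.33% for Csf3r and 4.54% for Mmp8. The value of the remaining marker, Il1r2, is not given, so that these values do not span the whole marker list. Of the granule genes, Lcn2 stood at 2.81%, Ngp at 8.69%, Ltf at 9.73% and Camp at 17.5%. Retnlg, an abundant neutrophil transcript, had 10.8, 147, 9.9 and 2.07 CPM in healthy and 2.71, 0.109, 2.33 and 12.7 CPM in tumor-bearing monocytes. The part of neutrophil transcripts in the monocyte rises was not tested. Without replicates 3 and 4 of monocytes of tumor-bearing mice, which had the highest marker sums, 4 of the 19 granule genes were called in monocytes. Primary granule genes gave no common call: of 7 tested, Ctsc rose in neutrophils (1.64) and none passed in monocytes.

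**Figure D3:**
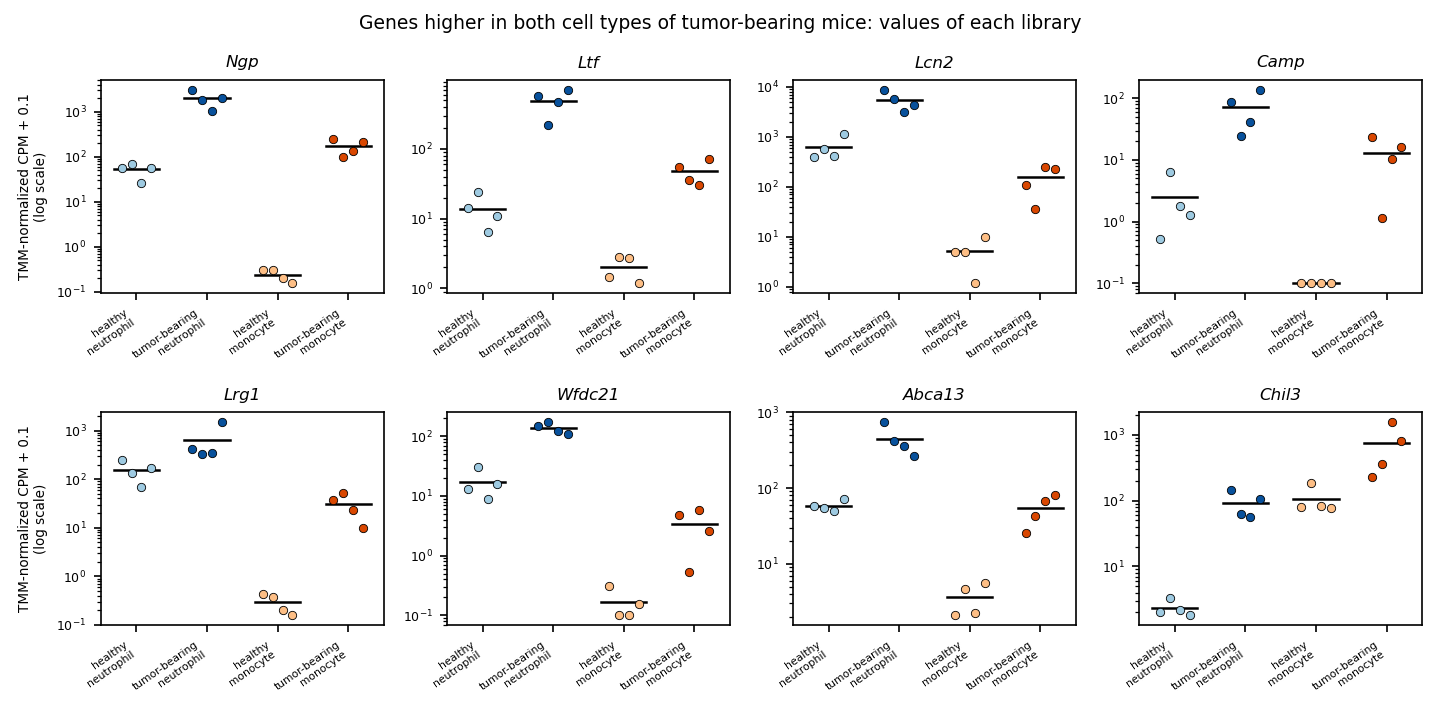
CPM + 0.1 on a log scale (y axis) of 8 genes that rose in both cell types, in healthy and tumor-bearing neutrophils and monocytes (x axis); each point is a library and each bar the mean of 4. In each cell type the libraries of tumor-bearing mice lie above the healthy ones for all 8 genes, and Ngp stands at 0.0575 to 0.212 CPM in healthy monocytes and at 98.5 to 248 CPM in those of tumor-bearing mice.

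Interferon-response genes led the falls, which were called for most of them in neutrophils and for few in monocytes. Of 36 interferon-stimulated genes tested, 29 fell in neutrophils and 3 in monocytes (Ifit3, Ifit3b and Oas3), none rose and none passed in the interaction. The list medians were -3.09 in neutrophils and -1.66 in monocytes, and 36 of 36 genes had a negative change in monocytes. Of 17 interferon-inducible GTPases, which attack the vacuoles of intracellular pathogens, 15 fell in neutrophils and 4 in monocytes (Gbp9, Tgtp1, Tgtp2 and Iigp1), with medians of -3.08 and -1.36 and no called interaction. The deeper median in neutrophils is thus not shown gene by gene to differ, and the fall of these lists cannot be named neutrophil-specific.

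The summed 36 interferon-stimulated genes had 11122, 7748, 32889 and 57294 CPM in healthy neutrophils and 4984, 4163, 6248 and 6276 CPM with tumor. Monocytes had 9360, 8209, 5755 and 11042 CPM in healthy and 3647, 4766, 2239 and 2498 CPM in tumor-bearing mice. All libraries of tumor-bearing mice lay below all healthy ones in both cell types, and replicates 3 and 4 of healthy neutrophils stood above the other two. Without these 2 libraries, an alternative chosen after seeing the data, 7 of the 36 genes fell in neutrophils and 12 in monocytes, and of the GTPases 7 fell in each. Leaving out 1 library gave 17 (without replicate 4 of healthy neutrophils) to 32 falls of the 36 in neutrophils and 0 to 7 in monocytes. The monocyte calls of this list went to 0 without replicate 3 of healthy neutrophils, replicates 1, 2 or 4 of neutrophils of tumor-bearing mice, replicates 1, 2 or 4 of healthy monocytes or replicates 2, 3 or 4 of monocytes of tumor-bearing mice.

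The 8 genes that fell in both cell types were Ifit3 and its near-identical neighbor Ifit3b, the GTPases Gbp9, Tgtp1 and Tgtp2, the oligoadenylate synthetase Oas1b, the helicase Ddx60 and Csf1. A search for the core of the interferon-stimulated response element, GAAANNGAAA on either strand (reverse complement TTTCNNTTTC), was made in RefSeq windows of GRCm38.p6 from 250 bases before to 50 after the gene start. Of the 8 genes 6 had a window, and 5 of these 6 (83.3%) held the core, the exception being Csf1. The 5 include the near-identical Ifit3 and Ifit3b and the related Tgtp1 and Tgtp2, which are not separate evidence. The share was 57.7% (15 of 26) for the interferon-stimulated list and 90% (9 of 10) for the GTPases, against 3.99% of 10428 tested genes with a window and 3.44% of all 32851 windows. Of all genes called in neutrophils, 52 of 267 that fell (19.5%) and 3 of 168 that rose (1.79%) held it. None of 12 common genes that rose, none of 31 neutrophil-specific genes that fell and 1 of 29 that rose (3.45%) held it. No gene of either interferon list passed in the interaction, so that the neutrophil-specific class could hold none of them. A match describes letters and is no proof of a site. The 250 bases before the start are shown for 3 genes that fell in both cell types, Ifit3 (19:34583279-34583528, plus strand), Ddx60 (8:61927837-61928086, plus strand) and Tgtp1 (11:48992247-48992496, minus strand), and for Ngp (9:110419558-110419807, plus strand), which rose in both and has no match. Capitals mark the core.
Ifit3: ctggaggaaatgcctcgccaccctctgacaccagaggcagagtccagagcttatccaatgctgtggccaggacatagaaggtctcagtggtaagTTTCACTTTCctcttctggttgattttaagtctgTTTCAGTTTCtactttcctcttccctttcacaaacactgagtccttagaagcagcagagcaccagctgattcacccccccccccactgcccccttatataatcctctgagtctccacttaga
Ddx60: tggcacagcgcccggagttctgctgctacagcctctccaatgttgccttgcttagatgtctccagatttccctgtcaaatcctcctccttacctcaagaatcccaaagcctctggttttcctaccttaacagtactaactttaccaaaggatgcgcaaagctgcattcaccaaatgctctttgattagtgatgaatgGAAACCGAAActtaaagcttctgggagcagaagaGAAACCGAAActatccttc
Tgtp1: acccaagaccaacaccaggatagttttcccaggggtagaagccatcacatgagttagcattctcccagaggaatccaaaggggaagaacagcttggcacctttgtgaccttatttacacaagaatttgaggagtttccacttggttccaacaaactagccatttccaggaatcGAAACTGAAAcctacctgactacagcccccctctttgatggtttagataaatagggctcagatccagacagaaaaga
Ngp: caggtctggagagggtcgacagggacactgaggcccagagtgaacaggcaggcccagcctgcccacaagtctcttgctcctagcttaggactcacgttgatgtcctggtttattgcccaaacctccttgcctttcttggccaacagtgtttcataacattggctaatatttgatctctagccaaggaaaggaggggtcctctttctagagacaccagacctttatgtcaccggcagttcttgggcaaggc

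Ifit3 (19:34583531-34588731, plus strand), an interferon-induced protein with tetratricopeptide repeats, had 247, 167, 1298 and 2867 CPM in healthy neutrophils and 10.9, 8.37, 21.3 and 21.7 CPM with tumor. Monocytes had 132, 111, 42.9 and 104 CPM in healthy and 14.7, 6.67, 3.73 and 3.98 CPM in tumor-bearing mice. Neither cell type showed overlap. The change was -6.20 (SE 0.86, adjusted p = 0.00057) in neutrophils and -3.74 (SE 0.77, adjusted p = 0.046) in monocytes, with an interaction of -2.47 (95% interval -4.58 to -0.35) whose adjusted p was 0.26.

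Gbp9 went from 88.5, 113, 199 and 334 CPM to 10.4, 17.9, 23.8 and 15.5 CPM in neutrophils, and from 79.3, 41.6, 47.5 and 58.2 CPM to 20.2, 11.1, 14.8 and 18.3 CPM in monocytes. Tgtp1 went from 14, 8.26, 44.8 and 78.1 CPM to 1.67, 2.73, 1.85 and 2.18 CPM, and from 52.6, 35.1, 23.9 and 65.4 CPM to 9.2, 4.54, 6.98 and 5.18 CPM. In both genes all libraries of tumor-bearing mice lay below the healthy ones in each cell type. The changes were -3.45 and -1.81 for Gbp9 and -4.10 and -2.77 for Tgtp1. Ddx60 had changes of -1.61 and -1.99, and its neutrophil groups overlapped (481 to 2258 CPM against 284 to 520 CPM). Its neutrophil call was kept in 11 of 16 fits without 1 library, with an adjusted p of 0.11 without replicate 4 of healthy neutrophils, and the change was -0.40 without replicates 3 and 4 of that group. Oas1b fell by 1.87 and 1.67 on the log2 scale, with a difference of -0.20 (95% interval -1.21 to 0.81). The monocyte adjusted p of the 7 interferon-response genes lay between 0.041 and 0.047, and these calls were fragile: of the 16 fits without 1 library, Ifit3 and Tgtp2 kept theirs in 5, Gbp9, Tgtp1 and Ddx60 in 4 and Oas1b in 3.

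Csf1 (3:107741048-107760469, minus strand), the growth factor for monocytes and macrophages, was the 1 common fall that was kept in both cell types in all 16 fits. It had 498, 463, 520 and 509 CPM in healthy neutrophils and 64.6, 60.2, 121 and 136 CPM with tumor, and 10.9, 11, 7.44 and 16.2 CPM in healthy and 2.75, 1.86, 4.35 and 2.21 CPM in tumor-bearing monocytes. The groups lay apart in both. Its change was -2.38 (SE 0.31, adjusted p = 0.00037) in neutrophils and -2.03 (SE 0.32, adjusted p = 0.012) in monocytes, with a difference of -0.36 (95% interval -1.28 to 0.57). With limma-voom, the tool named by the study, the monocyte fall had an adjusted p of 0.073, and that tool called 6 common genes, all of them higher. Over all 32 alternative fits the monocyte call of Csf1 was kept in 28. No common fall at all was called without replicates 1 and 2 of healthy monocytes, in the fit of all 40 libraries or with the quality weights of limma-voom.

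**Figure D4:**
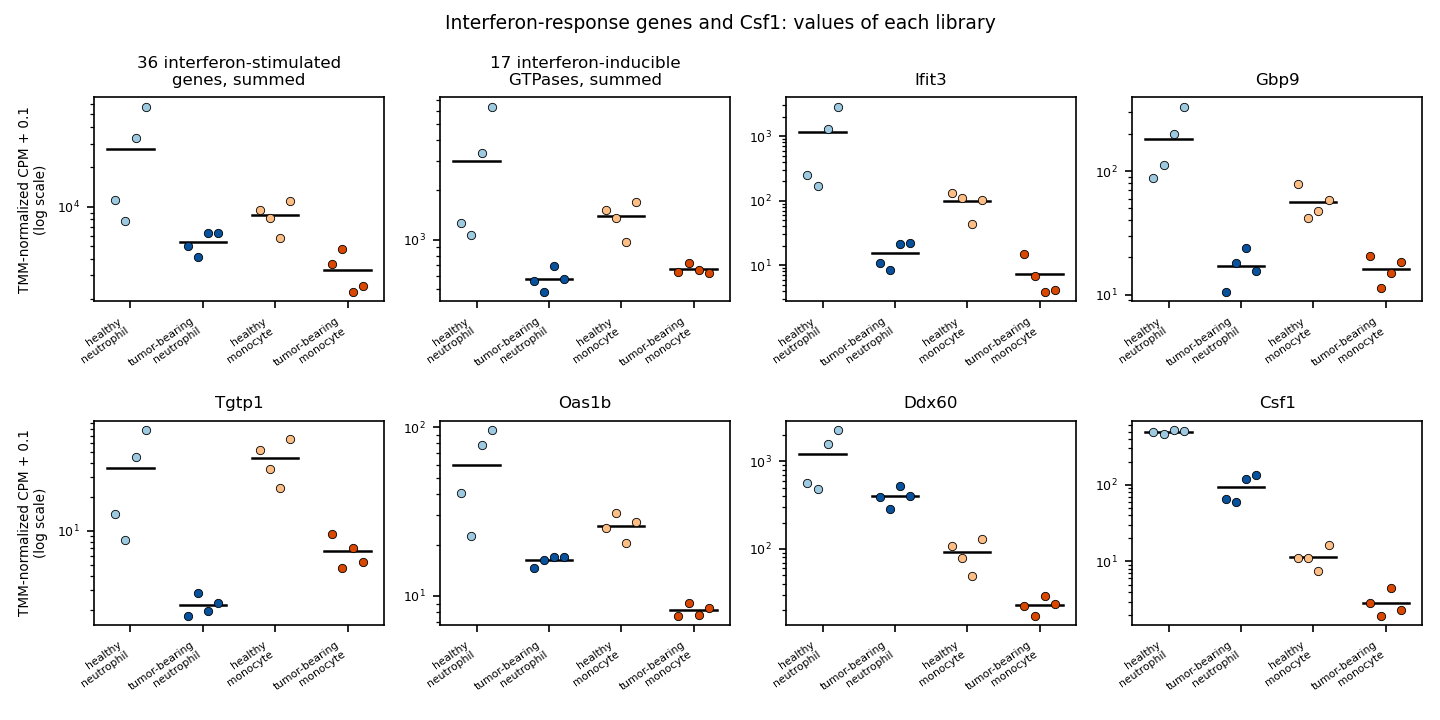
CPM + 0.1 on a log scale (y axis) of the summed 36 interferon-stimulated genes, the summed 17 interferon-inducible GTPases and 6 genes that fell in both cell types, in healthy and tumor-bearing neutrophils and monocytes (x axis); each point is a library and each bar the mean of 4. The libraries of tumor-bearing mice lie below the healthy ones in each panel, except that Ddx60 overlaps in neutrophils, and the healthy neutrophil sums spread from 7748 to 57294 CPM.

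The monocyte-specific class was small. Ptgfrn, a tetraspanin-associated inhibitor of the prostaglandin F receptor, had 6.74, 8.47, 5.81 and 5.63 CPM in healthy and 48.8, 50.7, 61.6 and 42 CPM in tumor-bearing monocytes, against 37.7, 35.6, 25.5 and 14.9 CPM and 7.46, 9.69, 14.3 and 25.7 CPM in neutrophils. Monocytes lay apart and neutrophils overlapped. Its monocyte rise was 2.93 (SE 0.39, adjusted p = 0.0026) and its interaction -3.93 (SE 0.53, adjusted p = 0.0028, edgeR), kept in all 16 fits. Ccr1, a receptor for CC chemokines, had 8.77 to 17.9 CPM and 22 to 51.1 CPM in monocytes and 466 to 804 CPM and 493 to 727 CPM in neutrophils. It rose in monocytes by 1.73 (adjusted p = 0.013) with an interaction of -1.89 (adjusted p = 0.03, kept in 8 of 16 fits), and was the only one of 24 adhesion and homing receptor genes called in monocytes or in the interaction.

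Siglece, an inhibitory sialic acid receptor, rose by 1.88 (interaction -1.54, adjusted p = 0.049, kept in 1 of 16 fits), and Tex15 and Spsb1 rose by 4.19 and 3.70 from levels of at most 0.402 CPM (each interaction kept in 3 of 16). Both Ccr1 and Siglece stood far higher in neutrophils. Their rise in monocytes went with a mostly higher summed level of neutrophil markers, which overlapped between the groups and whose part was not tested. The monocyte-specific falls were the focal adhesion protein gene Tns1 (0.672 to 2.81 CPM and 0.18 to 0.367 CPM, interaction 3.12, adjusted p = 0.031, kept in 7 of 16), Stra6l (interaction kept in 1 of 16) and Cd300e. Cd300e, an activating receptor of monocytes, had 10.4, 13, 1.77 and 3.5 CPM in healthy monocytes and 7 counts in all 4 libraries of tumor-bearing mice together. Its monocyte change was -6.15 (adjusted p = 0.033), and the interaction (adjusted p = 0.018) was lost without replicate 4 of monocytes of tumor-bearing mice (adjusted p = 0.051).

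Opposite changes were called for Ppp1r9a, the actin-binding neurabin, and for 2010310C07Rik, which overlaps the receptor gene Epha1. Ppp1r9a had 15.5, 25, 23.5 and 14.9 CPM in healthy neutrophils and 5.94, 1.5, 6.28 and 5.97 CPM with tumor, while monocytes went from 1.1, 2.42, 2.12 and 4.31 CPM to 21.9, 9.57, 30.9 and 34.2 CPM. No groups overlapped. It fell by 2.00 on the log2 scale in neutrophils (adjusted p = 0.029) and rose by 3.28 in monocytes (adjusted p = 0.013), with an interaction of -5.28 (SE 0.73, adjusted p = 0.0029). For 2010310C07Rik the changes were -2.35 and 2.43 and the interaction -4.79 (adjusted p = 0.0054). Both interactions were kept in all 16 fits.

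Other pathways gave calls mostly in 1 cell type without a called interaction. Over all genes 1.44% rose and 2.3% fell in neutrophils, and 0.25% rose and 0.166% fell in monocytes. A list with a single call is therefore not read as a change of its pathway. Genes of MHC class I presentation fell in neutrophils for 7 of 16 (among them the immunoproteasome subunits Psmb8 and Psmb10, the transactivator Nlrc5 and the transporter Tap1) and in monocytes for none, with medians of -1.65 and -0.60. In each cell type 16 of 16 changes were negative and the summed levels did not overlap. Monocytes had 4748 to 6135 CPM in healthy and 2608 to 4111 CPM in tumor-bearing mice. Without replicates 3 and 4 of healthy neutrophils none of the 7 was called, and without replicate 4 alone 1 was. Glycolysis and hypoxia genes rose in neutrophils for 4 of 25 (Pgk1 1.88, Pdk1 1.80, Pgam1 1.63 and Eno1 1.59) and in monocytes for none, with medians of 0.87 and 0.16. This count was 2 without any 1 of the healthy neutrophil libraries and 1 without replicate 3 of neutrophils of tumor-bearing mice. Immediate early and inflammatory genes fell in neutrophils for 3 of 27 (Atf3, Icam1 and Dusp2) and in monocytes for none. Without 1 library the call of Atf3 was kept in 6 of 16 fits (adjusted p up to 0.11), that of Icam1 in 10 and that of Dusp2 in all 16. Neither the 70 ribosomal protein genes, the 76 respiratory chain genes, the 18 interleukin-1 family genes nor the 11 MHC class II genes held a call in either cell type or in the interaction. The 28 cell cycle genes held 1, the neutrophil rise of the kinase Bub1 (5.75). Their median changes were 0.86 in neutrophils and 0.98 in monocytes, with negative changes for 9 and 5 of 28. Summed, they had 142 to 176 CPM in healthy and 258 to 351 CPM in tumor-bearing monocytes, without overlap. In neutrophils the sums overlapped (187 to 226 CPM and 159 to 338 CPM). In non-classical monocyte genes 2 of 16 fell in neutrophils (Clec4a3 and Itgax) and 1 in monocytes (the enolase Eno3, -2.16), and in the SLAM and Fc receptor list 1 of 16 fell in neutrophils (the high-affinity Fc receptor Fcgr1, -3.19). The call of Eno3 was kept in 7 of 16 fits without 1 library (adjusted p up to 0.11) and that of Fcgr1 in 12, and the change of Fcgr1 was -1.24 without replicates 3 and 4 of healthy neutrophils.

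**Figure D5:**
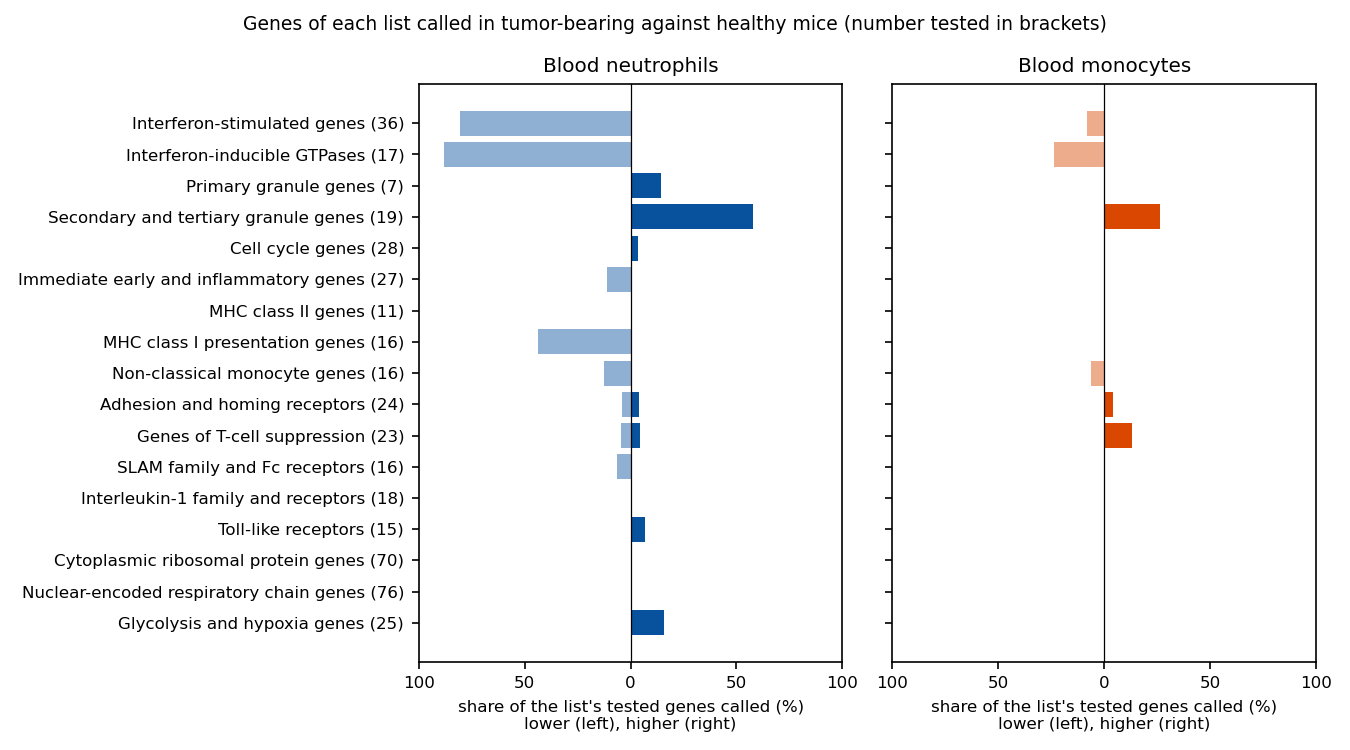
Share of the tested genes of each list (y axis, number tested in brackets) called lower (pale bars to the left) or higher (dark bars to the right) in blood neutrophils and in blood monocytes of tumor-bearing against healthy mice, in percent (x axis). Interferon-inducible GTPases had 15 of 17 genes lower in neutrophils and 4 in monocytes, interferon-stimulated genes 29 of 36 and 3, and secondary and tertiary granule genes 11 of 19 and 5 of 19 higher.

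Genes by which myeloid cells can restrain T cells showed no called interaction among 23 tested. In neutrophils 1 rose and 1 fell, beside 1.44% and 2.3% of all genes. In monocytes 3 rose and 0 fell, beside 0.25% and 0.166%. Nos2, the inducible nitric oxide synthase, had 0.321, 0.929, 0.67 and 0.512 CPM in healthy neutrophils and 61.4, 62, 10.1 and 18.6 CPM with tumor, and 11 and 17 counts in all healthy and all tumor-bearing monocyte libraries together. The neutrophil groups were apart. Nos2 rose in neutrophils by 5.91 (SE 1.00, adjusted p = 0.0025), but the interaction of 5.11 (95% interval 1.98 to 8.24) had an adjusted p of 0.12. Arg2, a mitochondrial arginase, had 182 to 260 CPM and 213 to 256 CPM in neutrophils, and 2.54, 0.0673, 1.43 and 1.61 CPM and 3.47, 22.1, 6.18 and 7.07 CPM in monocytes. It rose in monocytes by 2.74 (adjusted p = 0.049, kept in 2 of 16 fits), with an interaction of -2.57 (adjusted p = 0.14). The ligand of the checkpoint receptor PD-1, Cd274, fell in neutrophils by 3.24 on the log2 scale. The protease Mmp9 (0.83 and 1.30), the cytokine Tgfb1 (-0.56 and 0.42), the ectonucleotidases Entpd1 (-0.42 and -0.40) and Nt5e (1.34 and -1.01), Arg1 (2.23 and 0.58), Il10 (-0.92 and -1.11) and the cyclooxygenase Ptgs2 (-1.32 and 2.45) passed in neither cell type.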

How the data were processed

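RNA of cells sorted from blood was amplified with the NuGEN Ovation kit and sequenced as single reads, and the authors mapped reads to mm10 with Bowtie 2 and quantified genes on the HTSstation platform. The deposited values are expected counts per gene: 99.6% of nonzero values in the 16 blood libraries are not whole (tolerance 1e-6), and rounding to whole numbers changed a library total by at most 1043. Of 45706 genes, 45143 matched the gene annotation GENCODE M21. The version of Bowtie 2 and the use of strand are not given in the sources used here.

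The 16 libraries were fitted together in edgeR 4.0.16 (R 4.3.3) with 1 mean per group, filterByExpr by group, TMM scaling and the robust quasi-likelihood test; contrasts were the neutrophil change, the monocyte change and their difference, adjusted by Benjamini-Hochberg over 16817 genes. A gene was called at an adjusted p below 0.05 and an absolute log2 value above 1.5, the thresholds of the study. Intervals are unadjusted 95% intervals from the standard error of the fit. A fold against a group without counts was computed against a floor of 3 counts in each of its libraries. Fits were tested on simulated data. For a simulated log2 change of 2, edgeR recovered 47 of 71 changes in neutrophils, 42 of 62 in monocytes and 16 of 61 in the interaction. For a change of 4 it recovered 61 of 69 in the interaction. An interaction of log2 2 was thus mostly missed. The 24 pairs of replicates differed by 21.5 to 190.5 times counting error, so no library was a repeat of another.

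The genes named were, by rule, the 8 largest interactions per direction in the neutrophil-specific class (mean log2 CPM of at least 3, no predicted genes), the 6 largest common changes per direction, all monocyte-specific and opposite genes, members of lists with the smallest interaction p (up to 4 a list) and genes the study names; 1 gene of the first kind is not reported here. Members, lists and rules were chosen with earlier results of these data known. Gene lists (17 pathway lists, 11 marker lists) are described by counts of calls and medians, with no set test. Alternatives were limma-voom 3.58.1 (with and without quality weights), DESeq2 1.42.0, other scaling, filters and thresholds, all 40 libraries, blocks, and leaving out each library. The 24 libraries of tumors and colon entered only the fit of all 40.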

Additional observations from a re-analysis of the deposited data

Results flagged for a closer look

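The change differed between neutrophils and monocytes by the interaction test itself (edgeR, adjusted p below 0.05) for 43 of the genes named in the text. A more positive change in neutrophils, with a called rise there, was found for Ggt1 (6.88), Ly6g (4.89), Slc7a5 (4.66), Upp1 (4.50), BC025446 (4.49), Acvrl1 (4.38), Adpgk (3.97), Cd177 (3.52), Ifitm6 (3.41), Tlr1 (2.99), Eif4e3 (2.82), Ceacam10 (2.42), Cybb (2.35) and Anxa1 (1.96). Prok2 (adjusted p = 0.042) and Kcnn3 (adjusted p = 0.0046) passed likewise, but with at most 3 counts in every monocyte library they passed the filter through their neutrophil level and their size is not given. The size for Ggt1 depends on replicate 1 of healthy monocytes, which held 1.19 CPM against at most 0.0985 CPM in the others of its group. For Cd300e (8.48), Stra6l (3.27) and Tns1 (3.12) the call was a fall in monocytes. A more negative change in neutrophils, with a called fall there, was found for Calhm2 (-5.01), Ifi209 (-4.08), Clec4a1 (-3.98), Asb13 (-3.93), Prdm1 (-3.41), Stard9 (-3.21), Zfp318 (-3.20), AU019990 (-3.15) and Cd93 (-2.96). For Ppp1r9a (-5.28) and 2010310C07Rik (-4.79) both cell types moved, in opposite directions. For Lrg1 (-5.18) and Ngp (-4.92) both rose, monocytes more, and for Tex15 (-4.82), Spsb1 (-4.71), Ptgfrn (-3.93), Ccr1 (-1.89) and Siglece (-1.54) the rise was in monocytes. Neither cell type passed alone for Adam19 (2.10), Glrx (1.58), Tkt (1.56), Neat1 (-2.0), Bcl2l11 (-1.79) and Pparg (adjusted p = 0.049), the last with 3 counts in all healthy neutrophil libraries together.

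Chance puts about 5% of sets past Dixon's test at 95%. Of 292 sets of 4 libraries tested for 1 library far from the other 3, 15 passed. That is about the share that chance gives, so that no single set is shown to deviate beyond it. Among genes these were Lrg1 at 1509 CPM in replicate 4 of neutrophils of tumor-bearing mice, Ppp1r9a at 1.5 CPM in replicate 2 of the same group, Slc7a5 at 0.670 CPM in replicate 3 of healthy neutrophils, Chil4 at 122.7 CPM in replicate 2 and Ggt1 at 1.19 CPM in replicate 1 of healthy monocytes, and Siglece at 88.6 CPM in replicate 3 and Prok2 at 0.0632 CPM (1 count) in replicate 4 of monocytes of tumor-bearing mice. Among summed lists, replicate 2 of healthy monocytes stood high in neutrophil markers (599.8 CPM), SLAM family and Fc receptors (4372 CPM) and genes of T-cell suppression (2146 CPM), and replicate 4 of that group stood low in erythroid markers (3.96 CPM), platelet markers (12.5 CPM) and MHC class II genes (238.7 CPM). Genes of T-cell suppression stood at 93383 CPM in replicate 3 of neutrophils of tumor-bearing mice, and T cell markers at 6.0 CPM in replicate 4 of their monocytes.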

How the results depend on the processing

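The counts of calls, 136 in the interaction, 629 in neutrophils, 70 in monocytes and 23 common, moved by less than 1.5 times with RLE size factors, without mitochondrial genes and with at least 1 CPM in both cell types. Of the genes called in the interaction, in neutrophils or in monocytes, 1 changed sign under an alternative, Pou2af1 in neutrophils without replicates 1 and 2 of healthy neutrophils. DESeq2 called 514, 1047, 359 and 82 in that order, 135 of the 136 interaction genes among them. With limma-voom 6 common genes were called, and with its quality weights 86 in the interaction, 29 in monocytes and 3 common. Without a filter there were 75 in the interaction, 40 in monocytes and 12 common, with at least 10 counts in every library 400 in neutrophils, and without a fold threshold 952 in neutrophils. A fit of all 40 libraries gave 28, 366, 18 and 6.

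Replicate numbers pair nothing: same-numbered libraries correlated at -0.15 to 0.24 in their deviations from the group means. The replicate block gave 67 in the interaction, 22 in monocytes and 7 common. A block of the animals in the titles, which Xist contradicts for tumor-bearing mice, left 5 residual degrees of freedom and 3 interaction calls. That block also joined healthy neutrophil libraries with the monocyte pools titled with the same animals.

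Leaving out 1 library gave 39 (without replicate 2 of neutrophils of tumor-bearing mice) to 152 in the interaction, 386 (the same library) to 782 in neutrophils, 16 (without replicate 1 of healthy monocytes) to 96 in monocytes and 7 (the same library) to 30 common. Alternatives chosen after seeing the data were the level of Xist as a covariate, which moved none of the 4 counts by 1.5 times, and pairs of libraries left out. Without replicates 3 and 4 of healthy neutrophils, which had the highest interferon-stimulated level, 360 were called in neutrophils. Without their replicates 1 and 2, 38 were common. Without replicates 3 and 4 of monocytes of tumor-bearing mice there were 50 in the interaction, 40 in monocytes and 9 common, and without replicates 1 and 2 of healthy monocytes 20, 5 and 3. The cause of these shifts was not tested. With 4 libraries a group and a median standard error above 0.5 log2 per cell type, a missing call leaves a sizable change possible.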

Other observations

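A group of 39 genes passed in the interaction without passing in either cell type, 27 with the more positive and 12 with the more negative change in neutrophils. Those named here were chosen after their values were seen. Adam19, a membrane-bound metalloprotease, had 517 to 929 CPM in healthy neutrophils and 1617 to 1892 CPM with tumor, and 81.1 to 119 CPM and 48.2 to 66 CPM in monocytes, with no overlap in either. Its changes were 1.23 (adjusted p = 0.0013, edgeR) and -0.86 (adjusted p = 0.054), both within the fold threshold, and its interaction of 2.10 (adjusted p = 0.0017) was kept in all 16 fits without 1 library. Transketolase, Tkt, of the pentose phosphate pathway, and glutaredoxin, Glrx, which reduces protein-glutathione disulfides, had neutrophil changes of 1.39 and 1.44 (adjusted p = 0.0024 and 0.00023), within the fold threshold, and monocyte changes of -0.17 and -0.13, and their interactions were 1.56 (adjusted p = 0.035) and 1.58 (adjusted p = 0.0077). Without 1 library the interaction of Tkt was kept in 6 of 16 fits (adjusted p up to 0.079) and that of Glrx in 13.

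In the other direction the pro-apoptotic Bcl2 family gene Bcl2l11, which encodes Bim, had 187 to 363 CPM in healthy neutrophils and 86.7 to 185 CPM with tumor, and 46.7 to 107 CPM and 114 to 186 CPM in monocytes. Neither change passed (-0.88 and 0.91), while the interaction of -1.79 did (adjusted p = 0.049), and it was kept in 3 of 16 fits without 1 library (adjusted p up to 0.10). The nuclear long noncoding RNA Neat1 gave an interaction of -2.0 (adjusted p = 0.049) that was kept in 1 of 16 fits without 1 library. Pparg, a nuclear receptor of lipid metabolism, had 7.47 to 28.7 CPM in healthy and 1.09 to 2.59 CPM in tumor-bearing monocytes without passing there, and its interaction (adjusted p = 0.049) was kept in 2 of 16. Nnt, which differs between substrains of C57BL/6, had a change of -1.07 in neutrophils (adjusted p = 0.038) and 0.04 in monocytes, and its interaction did not pass (adjusted p = 0.21).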
